A study of Mus musculus with 8 samples.

Results

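The respiratory chain genes are those that encode the subunits of complexes I to V of the inner mitochondrial membrane. They were taken by symbol: every gene starting with Nduf, Uqcr or Atp5, Sdha to Sdhd, Cyc1, the Cox4 to Cox8 subunits, and the mitochondrial genes mt-Nd, mt-Co, mt-Cytb and mt-Atp. The pattern took 110 of the 15853 genes listed, 13 encoded in mitochondrial DNA and 97 in the nucleus. Of the nuclear genes, 82 encode subunits, 8 are Ndufaf assembly factors of complex I, 2 are other factors (Cox7a2l and Ndufa4l2) and 5 are pseudogenes. The pseudogene Ndufb4c, a processed copy identical to Ndufb4 over 390 nucleotides, bears a subunit symbol and was counted with the nuclear subunits, which makes 83; without it they had the same 14 calls. By complex the genes divided into 53 for complex I, 4 for complex II, 10 for complex III, 22 for complex IV and 21 for complex V, with factors and pseudogenes included. Cox5b-ps and Ndufa4l2, with mean normalized counts of 2.51 and 2.75, had no adjusted p-value, so 108 genes were tested.

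The study compared knockout with control macrophages grown from mouse bone marrow over 7 days in L929 conditioned medium, which supplies a macrophage growth factor. Knockout cells were Mirc11 fl/fl Mirc22 fl/fl Lyz2 Cre/Cre and control cells Mirc11 fl/fl Mirc22 fl/fl Lyz2 +/+, with 4 libraries each. Both groups thus carried the floxed miR-23-27-24 clusters, and both received 250 uM palmitate (C16:0) with 25 mM glucose and 10 nM insulin for 24 h. Poly(A)-selected RNA was sequenced. The Cre was driven by Lyz2, a myeloid lysozyme gene, and it occupied both copies, so that loss of the clusters, presence of Cre and loss of Lyz2 cannot be told apart. Separate animals are not stated for the 4 libraries of a group, so p-values describe the spread among these samples only, and that spread may be technical.

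In the respiratory chain, complex I takes electrons from NADH and complex II takes them from succinate, and both pass them to coenzyme Q. Complex III hands the electrons on to cytochrome c, complex IV gives them to oxygen, and complexes I, III and IV pump protons that drive ATP synthesis by complex V. Complex II is wholly nuclear encoded, whereas the other complexes combine nuclear subunits with subunits transcribed inside the mitochondrion from 2 long opposite-strand transcripts. In macrophages the balance between this pathway and glycolysis is known to change with activation.

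Values come from the authors' deposited table, which holds 1 DESeq2 comparison. It gives for each gene a mean normalized count over the 8 libraries, a log2 fold change (also written log2 change) of knockout over control with its standard error (SE), and an adjusted p-value. A gene was called at an adjusted p under 0.05. Group means were computed from the mean and the fold change with equal group sizes, and no value of a single library entered, so no spread within a group can be given beside the SE. The sign was read from Lyz2, with a log2 change of -9.10 (SE 0.42) by the authors' deposited table, because its header does not name the numerator. Of the 14619 genes tested, 23.0% were called, 11.3% higher and 11.7% lower in knockout.

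Of 16 macrophage markers, 1 was called higher (Adgre1) and 8 lower by the authors' deposited table, and all 16 were detected. Their summed level was 1.59% of all normalized counts in knockout cells and 1.61% in control cells, and the scarcest was Cx3cr1 at a mean of 180.0 normalized counts. Of 16 stromal markers tested, 15 were called higher and 0 lower, with a median log2 fold change of 1.88. Their summed level was 0.0125% of all normalized counts in knockout cells and 0.00327% in control cells. The part of either marker list in the respiratory chain values was not tested. In such bulk samples, fewer cells of a type and less RNA per cell cannot be told apart.

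Mitochondrial and nuclear encoded genes of the chain leaned in opposite directions as deposited. The nuclear lean was lost when centred on the summed group means, with 7 nuclear genes called higher and 4 lower. Centred on the median of all genes, the nuclear lean remained, with 66 of 95 negative, 3 called higher and 11 lower. The difference between the 2 sets was not tested. In the authors' deposited table, 3 of 13 mitochondrial genes were called higher and 0 lower. At an unadjusted p under 0.05, 5 were higher and 0 lower. All 13 log2 fold changes were positive, with a median of 0.22 and a median SE of 0.13. These 13 genes share 2 long transcripts, so their directions are not independent. Of 95 nuclear genes tested, 3 were called higher and 11 lower, 67 log2 fold changes were negative, and the median was -0.07 with a median SE of 0.08. All 14 nuclear calls were subunit genes. Among all 108 genes, 15.7% were called (5.56% higher and 10.2% lower), below the 23.0% (11.3% higher and 11.7% lower) of all genes tested. Neither difference in share was tested.

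Highly expressed genes as a whole also lay slightly below 0. Among the 7692 genes with a mean of at least 1000 normalized counts, the median log2 fold change was -0.05, with 8.14% called higher and 17.6% lower. Among the 83 nuclear subunit genes the median was -0.07, with 3.61% called higher and 13.3% lower. The lower calls of the nuclear subunits thus stood near the background of genes at that level. After centring on the summed group means, which removes a common log2 difference of -0.06, 49 of 95 nuclear genes were negative and the nuclear median was -0.0049. The 4 lower calls that remained were all of complex I, whose 38 nuclear subunits had a deposited median of -0.12. That centring raises every gene alike, so the positive mitochondrial values stay positive by construction.

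**Figure D1:**
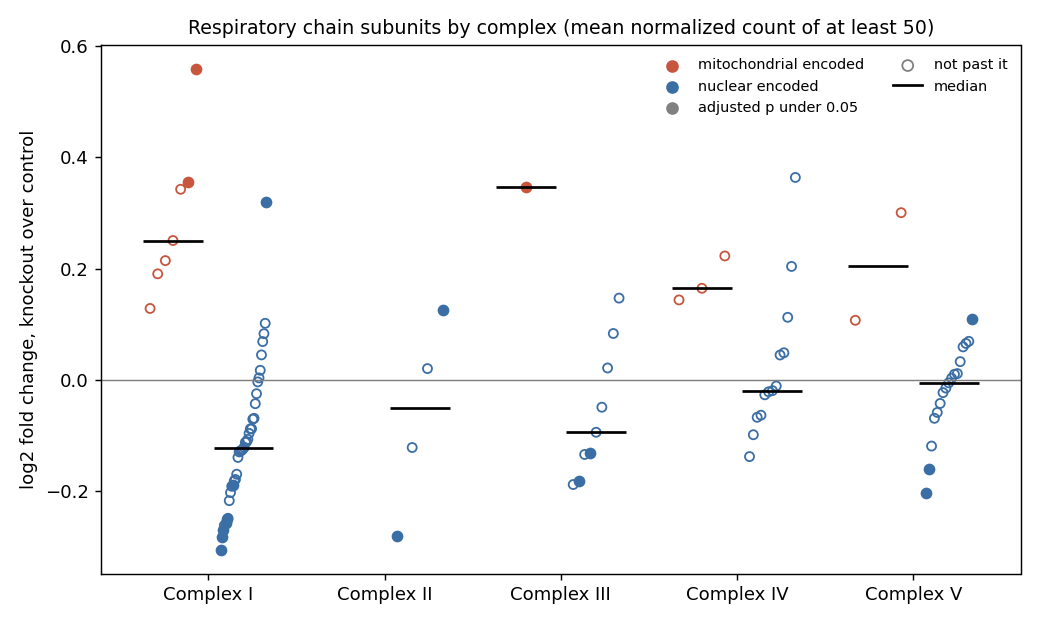
Log2 fold change (knockout over control, vertical axis) of each mitochondrial (red) and nuclear (blue) subunit gene with a mean of at least 50 normalized counts, by complex; points are genes, filled where the adjusted p was under 0.05, and lines are medians. All 13 mitochondrial genes lie above 0, while the 81 nuclear subunits lie on both sides of it with a median of -0.07.

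The sums of the group means differed in opposite directions for the 2 sets, whereas both shares of all normalized counts were higher in knockout. The 13 mitochondrial genes made up 2.31% of all normalized counts in knockout cells and 1.93% in control cells, a log2 ratio of their summed levels of 0.20. The 83 nuclear subunit genes made up 0.565% in knockout cells and 0.553% in control cells, and the log2 ratio of their summed levels was -0.03. The nuclear share was higher and the nuclear sum lower in knockout, where the summed level of all genes was also lower. A poly(A) selection captures mitochondrial mRNAs only as far as they carry tails, so these shares describe the selected RNA.

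The mitochondrial genes are given by complex. For complex I, mt-Nd4l, a small subunit of the proton-pumping membrane arm, averaged 17302 normalized counts in knockout cells and 11747 in control cells. Its log2 fold change of 0.56 (SE 0.16, DESeq2 adjusted p = 0.00373) was the largest of the 13 by the authors' deposited table. The large pump subunit mt-Nd5 averaged 92028 in knockout cells and 71885 in control cells (log2 fold change 0.36, SE 0.14, adjusted p = 0.0490 by the authors' deposited table). The call of mt-Nd5 lay just under the threshold, and its adjusted p was 0.0531 when genes of every mean were included. The other 5 mt-Nd genes had log2 fold changes of 0.13 (mt-Nd4) to 0.34 (mt-Nd6) by the authors' deposited table and none passed the test.

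For complex III, mt-Cytb, which carries the haem groups of cytochrome b, averaged 119660 normalized counts in knockout cells and 94120 in control cells. The log2 fold change of mt-Cytb was 0.35 (SE 0.13, adjusted p = 0.0447 by the authors' deposited table). The mitochondrial encoded complex IV subunits did not pass the test. By the authors' deposited table the log2 fold change was 0.16 (SE 0.11) for mt-Co1, 0.14 (SE 0.11) for mt-Co2 and 0.22 (SE 0.13) for mt-Co3. The complex V membrane subunits mt-Atp6 and mt-Atp8 had log2 fold changes of 0.11 (SE 0.13) and 0.30 (SE 0.14) by the authors' deposited table, also without passing. Whether the called genes moved more than the other mitochondrial genes was not tested, and the interval of mt-Nd4l, 0.25 to 0.87, overlaps that of mt-Co1, -0.06 to 0.39.

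Levels per kilobase of transcript spread widely within the mitochondrial genome although the heavy-strand transcript is shared. By mean normalized count per kilobase of the longest annotated transcript, mt-Co1 was highest at 377778, followed by mt-Co2 at 228317 and mt-Atp6 at 208512. The lowest were mt-Nd3 at 8278, counted without its near-identical nuclear copy, and mt-Nd6, the single member on the other strand, at 1509. These are levels in poly(A)-selected RNA, and whether the selection captured all of these mRNAs alike was not tested. For comparison, the highest nuclear subunits with an annotated length on the same scale were Cox4i1 at 20751 and Atp5b at 18685. mt-Co1 alone held 39.0% of the mitochondrial sum in knockout cells and 40.0% in control cells.

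Several mitochondrial values rest on reads that could be shared. mt-Nd4l (chrM:9877-10173 in mm10, plus strand) overlaps mt-Nd4 by 7 nucleotides, and mt-Atp8 overlaps mt-Atp6 by 43. mt-Nd5 and mt-Nd6 overlap by 14 nucleotides on opposite strands. Near-identical nuclear copies were sought at 95% identity or more over at least 200 nucleotides and 50% of the shorter transcript. Only copies among the 15853 genes listed were kept, so copies of other genes, mt-Nd4l included, may have gone uncounted. Copies were kept for 5 genes: 2 for mt-Co1, 2 for mt-Co2, and 1 each for mt-Nd3, mt-Nd4 and mt-Nd5. The copy of mt-Nd3, Gm28438, had a mean of 4096 normalized counts, 58.7% of the sum of gene and copy, so the level of mt-Nd3 is uncertain. Adding the copies left all 5 log2 ratios positive. They stood at 0.15 for mt-Co1, 0.14 for mt-Co2, 0.29 for mt-Nd3, 0.23 for mt-Nd4 and 0.36 for mt-Nd5. For mt-Co1, mt-Co2 and mt-Nd5 the copies held 0.43%, 0.95% and 0.0028% of the sum, so those ratios could hardly change. Copy values were uncertain: log2 changes were 1.47 (SE 1.57) for Gm28439, the mt-Nd4 copy, and -4.82 (SE 1.88) for Gm29216, of mt-Co1.

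Complex I, with 38 of the 83 nuclear subunits, held 7 of the 14 nuclear calls, 1 higher and 6 lower. Of its 38 log2 fold changes, 31 were negative (median -0.12). The share called was 18.4% (2.63% higher and 15.8% lower), against 23.0% (11.3% higher and 11.7% lower) of all genes tested. For the nuclear subunits of complexes II, III, IV and V it was 50%, 22.2%, 0% and 17.6%. Differences between these shares were not tested. Centred on the summed group means, complex I, mitochondrial genes included, had 4 higher calls and 4 lower. The 7 core subunits of complex I, which bind flavin and iron-sulfur clusters or line the quinone site, included 1 call. Ndufs8, an iron-sulfur subunit, fell to 1807 normalized counts in knockout cells, against 2162 in control cells. The log2 fold change of Ndufs8 was -0.26 (SE 0.08, adjusted p = 0.00519) by the authors' deposited table. The 31 accessory subunits, which surround the core, included 1 higher and 5 lower calls.

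Among accessory subunits, the membrane-arm Ndufb group had 3 of 12 called lower and 0 higher (6 lower and 0 higher at an unadjusted p under 0.05), with a median log2 fold change of -0.18. Without the pseudogene Ndufb4c these counts were 3 of 11 lower, and 5 lower at an unadjusted p under 0.05. As a share, 27.3% of the 11 were called lower, against 11.7% of all genes tested. Among genes with a mean of at least 1000 normalized counts it was 17.6%, and the differences were not tested. Ndufb10 fell to 2962 normalized counts in knockout cells, against 3663 in control cells (log2 fold change -0.31, SE 0.08, adjusted p = 0.00182 by the authors' deposited table). Ndufb11, an X-linked subunit, and Ndufb3 had log2 fold changes of -0.19 (SE 0.05, adjusted p = 0.00180) and -0.28 (SE 0.11, adjusted p = 0.0368) by the authors' deposited table. Relative to control, the levels of Ndufb10, Ndufb11 and Ndufb3 in knockout differed by -19.1%, -12.3% and -17.9%. When centred on the summed group means, Ndufb11 (adjusted p = 0.0517) and Ndufb3 (adjusted p = 0.122) were not called. Ndufb10 was still called there (adjusted p = 0.0176). The values of Ndufb4 and its identical copy Ndufb4c are uncertain, and neither was called.

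Of 13 Ndufa subunits, 2 were called lower and 1 higher. Ndufa1, a small X-linked subunit needed for assembly of the membrane arm, fell to 1452 normalized counts in knockout cells, against 1752 in control cells. Its log2 fold change of -0.27 (SE 0.05) had the smallest adjusted p of all 110 genes by the authors' deposited table, 4.92e-06. Ndufa2, of the matrix arm, had a log2 change of -0.25 (SE 0.07, adjusted p = 0.00361) by the authors' deposited table. Ndufa3 went the other way, with 2460 normalized counts in knockout cells and 1970 in control cells (log2 fold change 0.32, SE 0.08, adjusted p = 0.000562 by the authors' deposited table). Exons of Ndufa2, Ndufa3 and Ndufb11 overlap a gene on the opposite strand, by 66 nucleotides (Tmco6), 4 (Tfpt) and 117 (Rbm10). No source used here states whether counting used strand, so reads in those stretches cannot be told apart.

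Complex II had a call in each direction. The flavoprotein Sdha, which oxidises succinate, averaged 18465 normalized counts in knockout cells and 16931 in control cells (log2 fold change 0.13, SE 0.04, adjusted p = 0.0214 by the authors' deposited table). The iron-sulfur subunit Sdhb, which takes the electrons on, averaged 7007 in knockout cells and 8512 in control cells (log2 fold change -0.28, SE 0.09, adjusted p = 0.0149 by the authors' deposited table). The 95% intervals, 0.04 to 0.21 for Sdha and -0.46 to -0.10 for Sdhb, do not overlap. Sdhc and Sdhd, the membrane anchors, were not called, and Sdhb itself was not called when centred on the summed group means.

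Of 9 nuclear subunits of complex III, 2 were called lower and 0 higher (4 lower and 1 higher at an unadjusted p under 0.05), with a median log2 fold change of -0.09. Uqcrc1, a core protein facing the matrix, averaged 8644 normalized counts in knockout cells and 9804 in control cells (log2 fold change -0.18, SE 0.07, adjusted p = 0.0341 by the authors' deposited table). Uqcrh, the hinge protein beside cytochrome c1, had a log2 change of -0.13 (SE 0.04, adjusted p = 0.0156) by the authors' deposited table. Neither was called when centred on the summed group means (adjusted p = 0.2003 for Uqcrc1 and 0.257 for Uqcrh), where complex III, mt-Cytb included, had 2 higher calls and 0 lower.

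Complex IV had no call by DESeq2 among its 15 nuclear subunits, with 2 higher and 0 lower at an unadjusted p under 0.05 and a median log2 fold change of -0.01 that turns positive when centred on the summed group means. The 2 were Cox6b2, a testis isoform at a mean of 8.43 normalized counts (log2 fold change 2.07, SE 0.86, adjusted p = 0.0634), and Cox5a (0.11, SE 0.06, adjusted p = 0.134) by the authors' deposited table. The ubiquitous isoforms carried the expression: by mean normalized count per kilobase, Cox4i1 stood at 20751 and the lung isoform Cox4i2 at 6.93. On the same scale Cox6a1 stood at 7522 and the heart and muscle isoform Cox6a2 at 79.8, and Cox7a2 at 4449 and the muscle isoform Cox7a1 at 132.8. The log2 fold changes of Cox4i1, Cox7a2 and Cox8a were -0.01, -0.03 and -0.02 by the authors' deposited table, and each turned positive, by at most 0.05, when centred on the summed group means. Cox6a1 had -0.14 (SE 0.08), and the scarce Cox4i2, Cox6a2 and Cox7a1 had 0.07, 0.36 and 0.20 by the authors' deposited table; none was called. Cox8b, which the symbol pattern would take, was not among the 15853 genes listed.

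Of 17 nuclear subunits of complex V, 1 was called higher and 2 lower, with a median log2 fold change of -0.01 that also turns positive under that centring. The peripheral stalk, which holds the catalytic head still, had calls in both directions as deposited. Its subunit d, Atp5h, averaged 6171 normalized counts in knockout cells and 7111 in control cells (log2 fold change -0.20, SE 0.06, adjusted p = 0.00880 by the authors' deposited table). Its subunit b, Atp5pb, averaged 12510 in knockout cells and 11600 in control cells (log2 fold change 0.11, SE 0.04, adjusted p = 0.0331 by the authors' deposited table). Atp5e, the epsilon subunit of the central stalk, had a log2 change of -0.16 (SE 0.06, adjusted p = 0.0243) by the authors' deposited table. Neither lower call held when centred on the summed group means (adjusted p = 0.0895 for Atp5h and 0.209 for Atp5e), and complex V then had 3 higher calls and 0 lower.

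**Figure D2:**
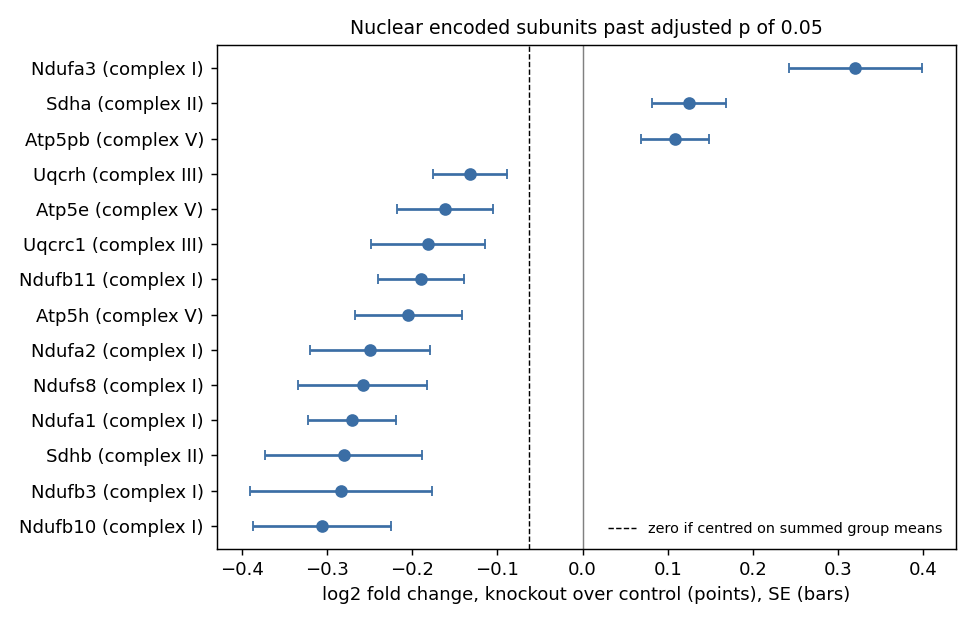
Log2 fold change (knockout over control, horizontal axis, points) with its SE (bars) of the 14 nuclear subunits with an adjusted p under 0.05; the dashed line is where 0 would lie if centred on the summed group means. Ndufa3, Sdha and Atp5pb are above 0 and the other 11 below it, between 0.32 for Ndufa3 and -0.31 for Ndufb10.

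Most nuclear differences were small. The 95% interval of the log2 fold change lay within 1.5-fold in either direction for 79 of 83 nuclear subunits, and within 1.25-fold for 60. Of the 13 mitochondrial genes, 9 had an interval within 1.5-fold and 0 within 1.25-fold, and 4 had a difference of at least 1.25-fold. The 8 Ndufaf assembly factors had 0 calls by DESeq2 (2 lower and 0 higher at an unadjusted p under 0.05), and Cox7a2l, a factor that joins complexes III and IV, had a log2 change of -0.05 (SE 0.07) by the authors' deposited table. Apart from Ndufb4c, which had a mean of 1471 normalized counts and was not called (adjusted p = 0.0639 by the authors' deposited table), the 3 pseudogenes tested had means of at most 10.8 and were not called.

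**Figure D3:**
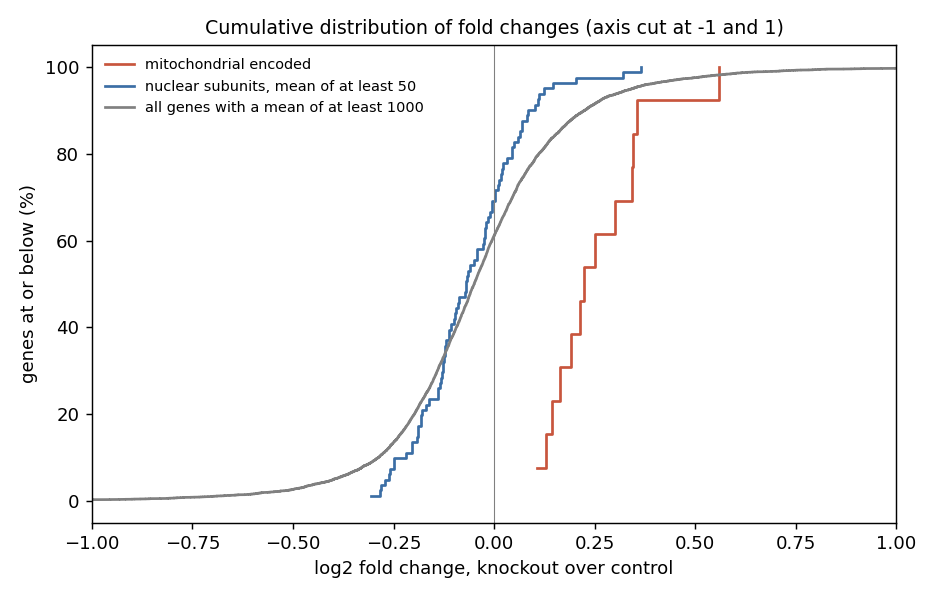
Cumulative share of genes (%, vertical axis) at or below each log2 fold change (knockout over control, horizontal axis) for the 13 mitochondrial genes, the 81 nuclear subunits with a mean of at least 50 normalized counts and all genes with a mean of at least 1000. The nuclear subunits, with a median of -0.07, lie near the highly expressed genes, with a median of -0.05 and wider tails, and the mitochondrial genes sit to the positive side with a median of 0.22.

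Genes that build or serve the chain were counted from lists, without a test of the list. Of all genes tested, 11.3% were called higher and 11.7% lower. Of assembly factors, 0 of 17 were called for complex I (3 lower and 0 higher at an unadjusted p under 0.05) and 0 of 4 for complex II (0 at an unadjusted p under 0.05). For complex III 1 of 6 was higher (Lyrm7, log2 fold change 0.54), and for complex IV 2 of 23 were higher (Coa5, 0.30, and Fastkd3, 0.26) and 1 lower (Cox20, -0.32), by the authors' deposited table. For complex V 1 of 6 was lower by the authors' deposited table: Atpaf2, a chaperone of the catalytic head, had a log2 change of -0.36 (SE 0.08, adjusted p = 6.62e-05). Coenzyme Q synthesis had 0 of 13 called (1 lower and 1 higher at an unadjusted p under 0.05), and supercomplex factors 0 of 3 (1 lower and 0 higher).

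Genes for upkeep and transcription of mitochondrial DNA had 1 higher and 2 lower of 28, or 10.7% called against 23.0% of all genes tested. The topoisomerase Top1mt had a log2 change of 0.47 (SE 0.17, adjusted p = 0.0325), and the mitochondrial RNA polymerase Polrmt one of -0.27 (SE 0.08, adjusted p = 0.00343), by the authors' deposited table. Fastkd1, an RNA-binding protein of mitochondria, had -0.24 (SE 0.10, adjusted p = 0.0492) by the authors' deposited table. Tfam, which packages mitochondrial DNA and starts its transcription, had a log2 change of 0.00 (SE 0.07) by the authors' deposited table.

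Of 13 regulators of mitochondrial genes, 1 was called higher and 2 lower. That is 23.1% called, near the 23.0% of all genes tested. The oxidative stress factor Nfe2l2 had a log2 change of 0.35 (SE 0.08, adjusted p = 0.000233), the orphan receptor Esrra -0.33 (SE 0.08, adjusted p = 0.00100) and the lysosomal regulator Tfeb -0.33 (SE 0.06), by the authors' deposited table. Nrf1 and Gabpa, activators of nuclear respiratory genes, had -0.06 (SE 0.09) and 0.17 (SE 0.11) by the authors' deposited table and were not called. The coactivator Ppargc1a had a mean of 12.7 normalized counts. Tfam, Nrf1, Gabpa and Ppargc1a are named for their roles, not for their values.

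The promoters of the nuclear subunits were searched for the cores bound by these activators, GCGCATGCG for NRF1 and CCGGAAG for GABP, on both strands of the window from 250 bases before to 50 after the start (RefSeq, GRCm38.p6). The windows of 67 of 83 subunit genes matched. The NRF1 core stood in 8 of them (11.9%), against 3.59% of the windows of all genes tested, and the GABP core in 16 (23.9%), against 17.6%. Of 10 matched genes called lower, 1 held the NRF1 core and 5 the GABP core. A match is a description of the sequence and not of binding. The windows of Ndufs8 (chr19:3912725-3913024, minus strand), Sdhb (chr4:140961021-140961320, plus strand) and Uqcrc1 (chr9:108936398-108936697, plus strand) are shown as called genes of 3 complexes, with the core in capitals, GABP in Ndufs8 (on the opposite strand) and Sdhb, and NRF1 on both strands in Uqcrc1.
Ndufs8: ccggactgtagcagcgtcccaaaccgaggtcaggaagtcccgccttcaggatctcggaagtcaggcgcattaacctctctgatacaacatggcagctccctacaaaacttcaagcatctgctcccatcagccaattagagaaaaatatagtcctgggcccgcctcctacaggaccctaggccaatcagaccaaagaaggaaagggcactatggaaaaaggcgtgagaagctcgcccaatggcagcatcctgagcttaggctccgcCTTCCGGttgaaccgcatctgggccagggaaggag
Sdhb: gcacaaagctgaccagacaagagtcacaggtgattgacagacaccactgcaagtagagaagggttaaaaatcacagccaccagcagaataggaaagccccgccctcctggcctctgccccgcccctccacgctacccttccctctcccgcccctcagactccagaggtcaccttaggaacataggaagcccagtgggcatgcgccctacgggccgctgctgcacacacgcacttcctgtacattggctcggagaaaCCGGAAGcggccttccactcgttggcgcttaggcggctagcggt
Uqcrc1: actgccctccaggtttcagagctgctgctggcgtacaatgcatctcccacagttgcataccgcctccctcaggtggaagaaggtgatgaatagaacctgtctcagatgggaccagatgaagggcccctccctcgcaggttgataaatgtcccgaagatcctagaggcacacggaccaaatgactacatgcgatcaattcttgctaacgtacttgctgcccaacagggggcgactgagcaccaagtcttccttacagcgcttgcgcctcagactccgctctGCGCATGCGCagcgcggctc

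The products of the floxed clusters are miR-23, miR-24 and miR-27, which pair through the seed, bases 2 to 8, with sites in 3' untranslated regions. The mature RNAs (RefSeq, GRCm38.p6) are shown with the seed in capitals because the sites searched for derive from it. miR-27a-3p and miR-27b-3p share 1 seed, and miR-24-3p is the same RNA from both clusters.
mmu-miR-23a-3p: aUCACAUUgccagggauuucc
mmu-miR-27a-3p: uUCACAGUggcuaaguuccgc
mmu-miR-27b-3p: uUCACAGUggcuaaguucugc
mmu-miR-24-3p: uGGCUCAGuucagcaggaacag

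Nuclear subunit genes had short 3' untranslated regions and few sites. In GENCODE M21 the median length was 264 nucleotides for the 79 subunit genes with such a region, against 1347.5 for all genes tested. A site of 7 nucleotides matched bases 2 to 8 of the miRNA, or bases 2 to 7 followed by an A. A site of 8 nucleotides matched bases 2 to 8 followed by an A. At least 1 site of 7 or 8 nucleotides stood in 18 of the 79 (22.8%), against 56.8% of all genes tested. By miRNA, 6.33% held a miR-23 site, 12.7% a miR-27 site and 7.59% a miR-24 site, against 26.0%, 31.2% and 28.8% of all genes tested. Lengths were not matched between the groups of genes.

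Of the 18 subunit genes with a site, 1 was called higher (Sdha) and 1 lower (Ndufa2), with a median log2 fold change of -0.00. Of the 61 without a site, 1 was called higher and 10 lower, with a median of -0.07. The share called was 11.1% with a site (5.56% higher and 5.56% lower) and 18.0% without (1.64% higher and 16.4% lower). Both lay below the 23.0% of all genes tested. The difference between the 2 groups was not tested, and all genes with and without a site were not compared. Sdha held an 8-nucleotide miR-27 site (chr13:74322347-74322354, minus strand) and a 7-nucleotide miR-24 site. Uqcrfs1, the Rieske iron-sulfur protein of complex III, held an 8-nucleotide miR-23 site (chr13:30540590-30540597, minus strand), with a log2 change of 0.15 (adjusted p = 0.0663) by the authors' deposited table; it was named after its values were seen. The sites are shown in capitals within their flanking bases, as examples for each of the 3 seeds.
Sdha, miR-27: tctacttctcACTGTGAAtgtaactagt
Sdha, miR-24: taagagcaagCTGAGCCttccccatgc
Uqcrfs1, miR-23: ggcaaacattAATGTGAAgtaattgaat

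Subunit genes within 5 Mb of a floxed cluster were Ndufb7, at 0.637 Mb from Mirc11, and Uqcrb, at 3.60 Mb from Mirc22. Their log2 fold changes were -0.19 (adjusted p = 0.0817) and -0.13 (adjusted p = 0.0648) by the authors' deposited table, and neither was called.

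**Figure D4:**
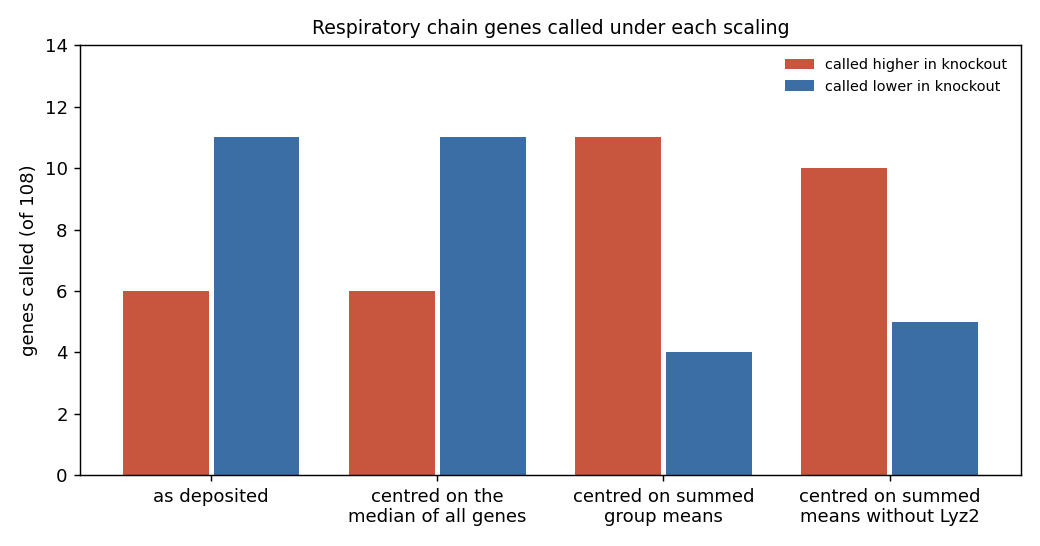
Number of respiratory chain genes called higher and lower in knockout (of 108) under each centring of the fold changes. The split is 6 higher and 11 lower as deposited, and 11 higher and 4 lower when centred on the summed group means.

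The split of the calls depended on the scaling. As deposited, 6 genes were called higher and 11 lower; centred on the summed group means, 11 were higher and 4 lower, while all genes tested gave 16.0% higher and 6.57% lower. Ndufa1, Ndufa2, Ndufb10 and Ndufs8 were the 4 lower genes there, and all are of complex I. The centring raises every log2 fold change alike, so that higher calls are gained and lower calls lost by construction.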

How the data were processed

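Polyadenylated RNA of 4 knockout and 4 control libraries was measured. The submitters' processing notes name mm10, DESeq2, Salmon, cutadapt and FastQC, and the sources used here give no version or role for them. Per the file headers, the deposited comparison holds the authors' mean normalized signal per gene, log2 fold change with SE, Wald score, and p-value with adjusted p-value. Values per library fill 8 further columns whose numbering matches no label, so they were not used. Depth per library is therefore not given here, and the limma fit planned for these columns was not run. Adjusting the deposited p-values again by Benjamini-Hochberg over 14619 genes changed them by at most 5.66e-09. Group means, centred fold changes and refitted adjustments were computed with pandas 2.3.3 and scipy 1.17.1 and tested on simulated data. Positions and 3' untranslated regions came from GENCODE M21, in which 103 of 110 genes matched by symbol, and near-identical copies from blastn 2.17.0. Members and lists were chosen with earlier results of these data known. Genes named are all mitochondrial members, all nuclear members called, the 2 with the smallest adjusted p where a complex had fewer than 2 calls, Cox isoform pairs, and up to 3 called members per related list. Ndufa4 was counted with complex IV.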

Additional observations from a re-analysis of the deposited data

How the results depend on the processing

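Centred on the summed group means, 11 genes were called higher and 4 lower; leaving Lyz2 out of those sums gave 10 and 5, a choice made after seeing the data. By complex, the lower calls of II, III and V became 0 under both centrings, and the higher calls became 2 for III and 1 for IV under both. For V the higher calls became 3, or 2 without Lyz2. Both centrings raise every log2 fold change alike, so higher calls are gained and lower calls lost by construction. Why the summed group means differ was not tested. Cox4i1, Cox7a2 and Cox8a turned positive, at 0.051, 0.036 and 0.043, and at 0.041, 0.025 and 0.033 without Lyz2. At an adjusted p under 0.01, 2 genes were higher and 6 lower, as the threshold itself requires. Of 203 values of 34 named genes under 6 alternatives, 172 kept their direction and their side of the threshold. Filters on the mean, centring on the median of all genes, and leaving out factors or pseudogenes moved neither count by over 1.5 times. No paired analysis was possible because no column of values per library carries a sample label. For the same reason fits without each replicate and with other pseudocounts were not run, and whether 1 library decides a call was not tested.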
